A study of Bos taurus with 15 samples.

Results

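Transcript signals of bovine (Bos taurus) 1-cell embryos were compared with those of oocytes, the earliest interval in a series that runs to the blastocyst. The groups were taken from the sample titles, which name 3 oocyte arrays and 2 arrays of embryos at 1 cell, so the comparison used 5 of the 15 arrays of the series. Both groups came from 1 protocol text that the labels repeat for every sample. It describes oocytes aspirated from ovarian follicles of 2 to 6 mm, kept in maturation medium for 20 h, incubated with sperm for 18 to 22 h, and freed of cumulus cells by vortexing. The labels do not say at which of these steps the oocytes of the oocyte group were taken, nor how many oocytes or embryos were pooled for an array, and no genotype, breed or treatment separates the groups. Replicates are called biological. Each p-value below measures only a spread between arrays, and that spread was estimated over all 15 arrays of the series, with 7 residual degrees of freedom, so arrays of morulae and blastocysts, 3 of each, enter it too.

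An oocyte that completes maturation stops most transcription and carries a store of messages for the first divisions. Fertilisation releases it from meiotic arrest, and the 1-cell embryo then forms pronuclei, copies its DNA and enters mitosis largely on that store. Stored messages are often kept with short poly(A) tails, which are lengthened when a message is recruited for translation and shortened before it is removed. In cattle the main activation of the embryo's own genome follows several divisions later.

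After 3 rounds of amplification the biotin-labelled RNA was hybridised to Affymetrix Bovine Genome arrays, on which a probe set is a group of short probes for 1 transcript. Each array gave 1 deposited intensity per probe set, called signal here. Mean signal was 561 to 586 for oocytes and 612 to 628 for 1-cell embryos. With arrays on so similar a scale a signal stands for a share of the amplified RNA, and fewer cells of a type and less RNA per cell cannot be told apart. The arrays were not equally close. A gap of 4-fold or more separated oocyte 1 from oocyte 2 in 320 probe sets and 1-cell 1 from 1-cell 2 in 987, but oocyte 3 from the other oocyte arrays in 2772 and 3065. Labelling control transcripts gave signal on oocyte 2, oocyte 3 and 1-cell 2 and were near background on oocyte 1 and 1-cell 1, so both groups held arrays of both kinds. The GAPDH control's middle to 3′ signal ratio, which drops as labelled RNA gets shorter, was 0.0977, 0.237 and 0.0374 in oocytes against 0.257 and 0.122 in 1-cell embryos. For cyclophilin it was 0.0607, 0.102 and 0.0141 against 0.134 and 0.0628. Neither ratio separated the groups. The part of these array differences in the results was not tested.

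Few transcripts differed between the stages beyond the spread between arrays, and most of those that did were higher in the 1-cell embryo. Of 24016 probe sets, 65 passed (0.271%), 56 of them higher (0.233%) and 9 lower (0.0375%) in 1-cell embryos, by limma on log2(signal + 16) with a threshold of 0.05 on the adjusted p. Changes ran from 2.39-fold to 23.2-fold upward and from 2.70-fold to 30.0-fold downward, and 52 of the 65 were at least 4-fold. All folds are on the log2(signal + 16) scale, which understates changes of low signals. The median log2 change over all probe sets was 0.014. Counted at the probe set of each gene with the highest mean over all arrays, called its brightest here, 32 of 9155 genes passed (0.35%), 26 higher (0.284%) and 6 lower (0.0655%). At an unadjusted p below 0.05 there were 1824 probe sets (7.59%).

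**Figure D1:**
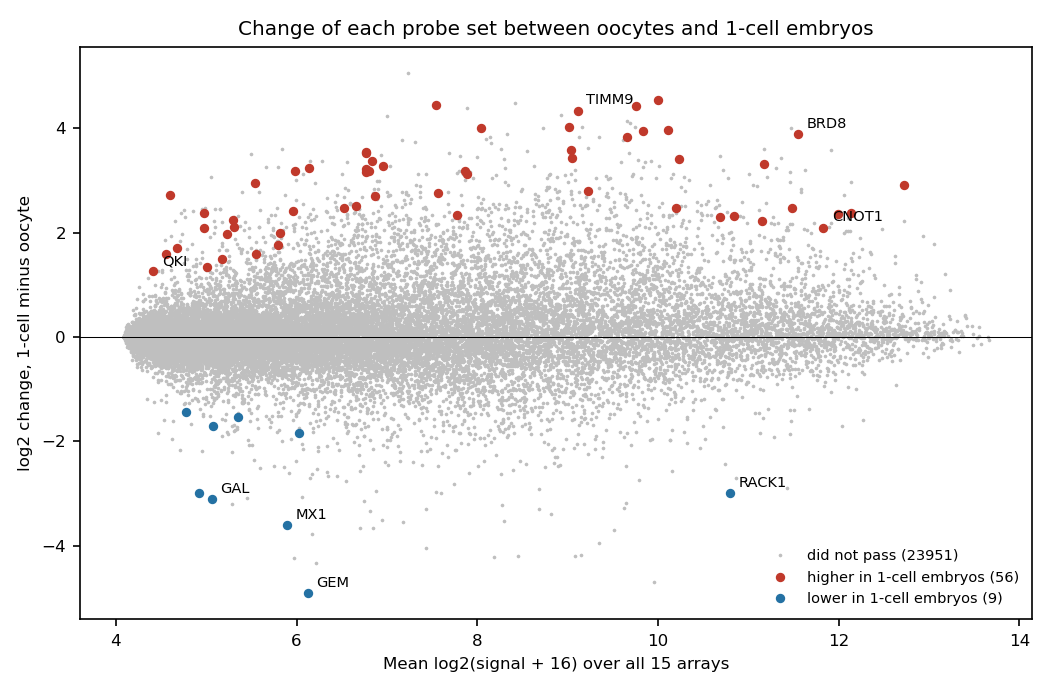
Log2 change between oocytes and 1-cell embryos (vertical axis) against the mean log2(signal + 16) over all 15 arrays (horizontal axis), 1 point per probe set. The 56 red points are probe sets past the test and higher in 1-cell embryos, the 9 blue points those past it and lower, and grey points did not pass; most of the cloud lies close to 0.

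The count of calls rested on single arrays. With each of the 5 arrays left out in turn, 2 of the 65 probe sets stayed past the test in all 5 fits: the probe set of MX1 and 1 without a gene name. Without 1-cell 2, 8 probe sets passed, and without oocyte 1, 11 passed. Without oocyte 2 there were 32, without oocyte 3 there were 135, and without 1-cell 1 there were 169. In a fit to the 5 arrays of the compared stages alone, with 3 residual degrees of freedom in place of 7, none passed, while 1606 had an unadjusted p below 0.05. An alternative chosen after the data had been seen left out array 3 of each stage that has 3 arrays (oocyte, morula and blastocyst). It gave 419 probe sets, 61 of the 65 among them, and 257 genes (2.81%), of which 229 were higher and 28 lower. Because the choice followed the data, passes in this fit, given below for single genes and lists, are descriptions and add no support.

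**Figure D2:**
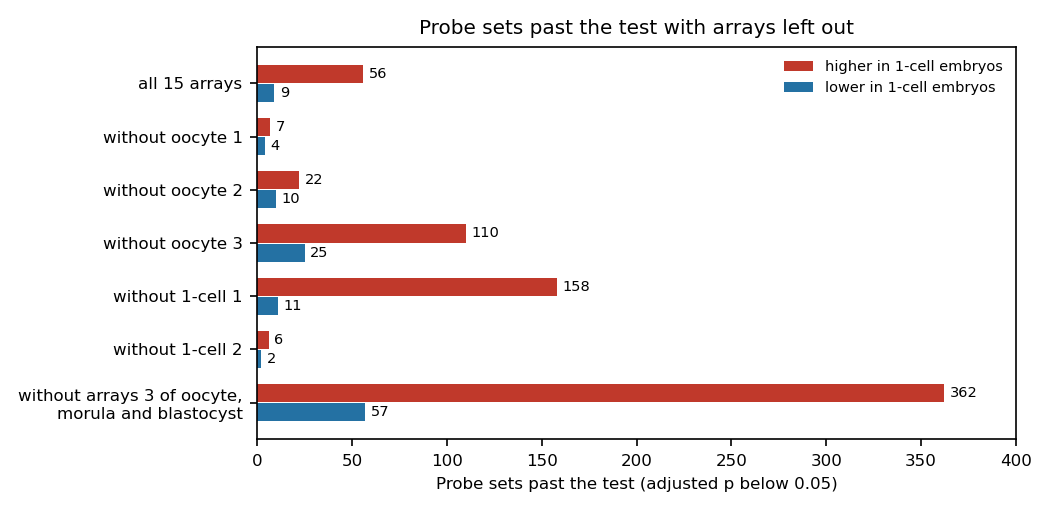
Number of probe sets past the test (horizontal axis) higher (red) and lower (blue) in 1-cell embryos, with all 15 arrays and with arrays left out of the fit. Counts of higher probe sets run from 6 without 1-cell 2 to 362 without the arrays numbered 3, and higher probe sets outnumber lower ones in every fit shown.

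The 6 genes that fell have roles in signalling, antiviral defence, translation, retinoid binding and mitochondria. GEM encodes a small GTPase that restrains voltage-gated calcium channels. Its signal was 868, 379 and 2175 on oocyte arrays 1, 2 and 3 and 12.5 and 16.6 on 1-cell arrays 1 and 2, the order kept throughout. No 1-cell array came near the lowest oocyte array, and GEM was 30-fold lower (log2 change -4.91, SE 0.59, adjusted p = 0.0163). MX1 encodes an interferon-induced antiviral GTPase. It was at 276, 214 and 327 in oocytes and 4.75 and 10.5 in 1-cell embryos, 12.2-fold lower (log2 change -3.60, SE 0.30, adjusted p = 0.00707), and its adjusted p stayed between 0.0079 and 0.0252 whichever array was left out. GAL, the precursor of the neuropeptide galanin, was at 106, 72.4 and 296 and then at 1.07 and 1.85, close to the lowest values on the array (log2 change -3.10, SE 0.43, adjusted p = 0.0299). On the single arrays of later cleavage MX1 was at 9.41, 5.81, 11 and 1399 and GEM at 6.79, 5.39, 21.2 and 3296 in 2-, 4-, 8- and 16-cell embryos, both low up to 8 cells and above all oocyte arrays at 16. GAL was at 1, 1, 1 and 13.8 on those arrays.

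RACK1 is a scaffold protein that sits on the small ribosomal subunit. Its signal was 1140.4, 1302 and 2435 in oocytes and 233 and 136 in 1-cell embryos, 7.98-fold lower (SE 0.42 on the log2 scale, adjusted p = 0.0327). The other RACK1 probe set was dim on every array, at 19.4, 12.3 and 6.35 against 12.6 and 16.4, and did not pass. CRABP2, which carries retinoic acid inside cells, went from 64.9, 42.5 and 77.6 to 8.28 and 12.9 (log2 change -1.53, SE 0.24, adjusted p = 0.0449). C10H15orf48, a small mitochondrial protein related to a cytochrome oxidase subunit, went from 29.3, 47.2 and 49.4 to 5.15 and 5.21 (log2 change -1.43, SE 0.19, adjusted p = 0.0244). In these 6 genes both 1-cell arrays lay below every oocyte array, as they did for 8.12% of all genes. CRABP2 and C10H15orf48 fall outside the rule for named genes and are named because every gene past the test is given. GEM lost its call without oocyte 1 or 1-cell 2, with an adjusted p of up to 0.0961, and GAL and CRABP2 without oocyte 1, 1-cell 1 or 1-cell 2, with up to 0.182. RACK1 lost its call without oocyte 1, oocyte 2 or 1-cell 2, with up to 0.182, and C10H15orf48 without oocyte 2, 1-cell 1 or 1-cell 2, with up to 0.152.

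**Figure D3:**
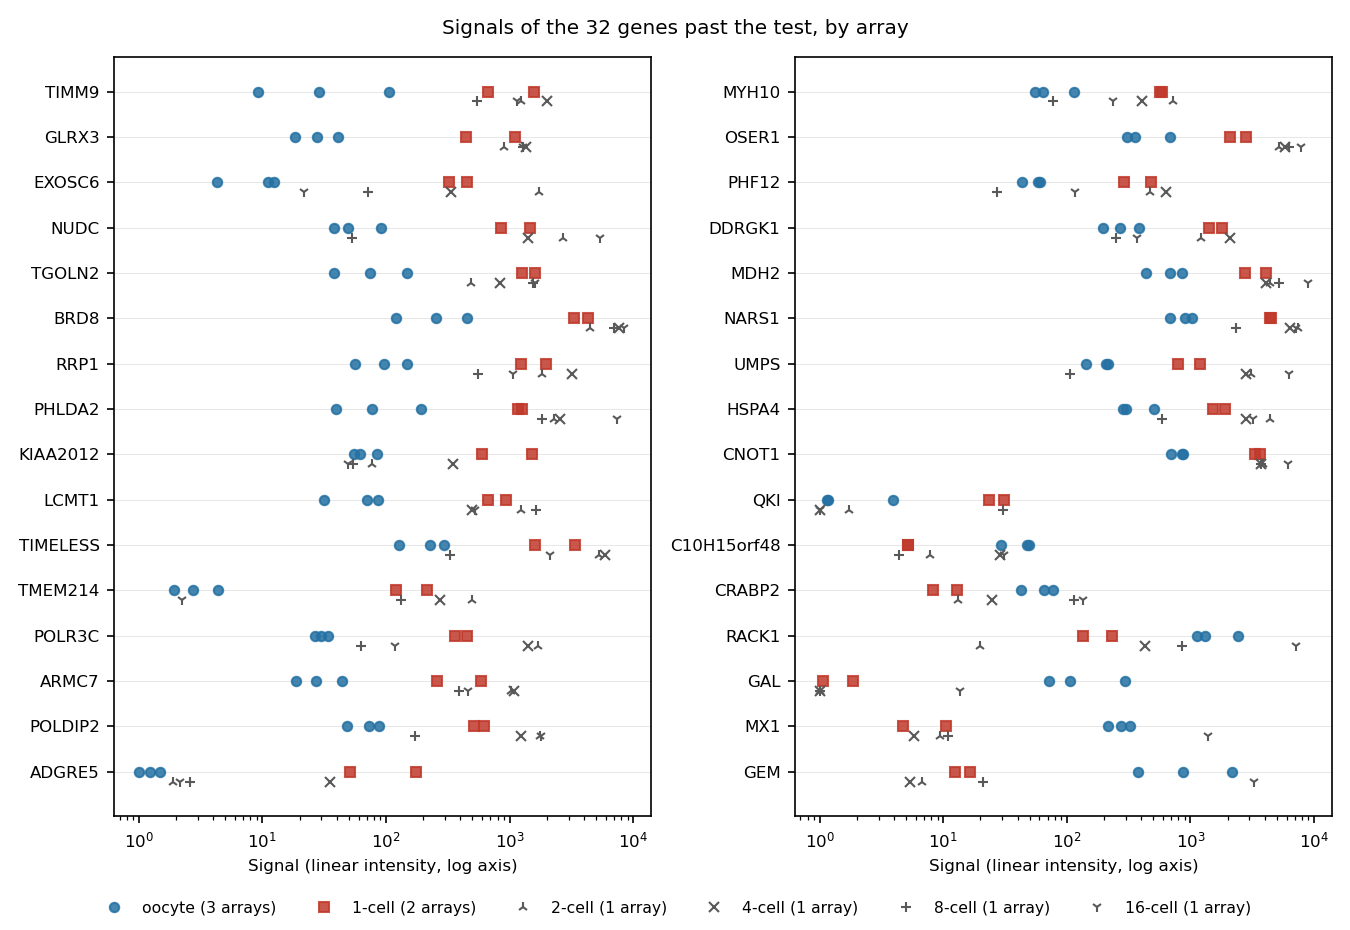
Signal (horizontal log axis, linear intensity) of the 32 genes past the test, 1 row per gene, on the 3 oocyte arrays (blue circles), the 2 arrays of 1-cell embryos (red squares) and the single 2-, 4-, 8- and 16-cell arrays (grey signs, set slightly lower). In each row the blue and red points do not overlap; the 6 genes from C10H15orf48 to GEM are lower in 1-cell embryos and the other 26 higher.

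The genes that rose are ordered here by role, an order made after they were known. The first act on RNA. CNOT1 is the scaffold of the CCR4-NOT complex, the main enzyme that shortens poly(A) tails. Its signal was 869.6, 694 and 857 in oocytes and 3643 and 3337 in 1-cell embryos, with close replicates in both groups, 4.28-fold higher (log2 change 2.10, SE 0.32, adjusted p = 0.0379). EXOSC6, a core subunit of the RNA exosome that degrades RNA from its 3′ end, went from 12.4, 4.31 and 11.2 to 323 and 456 (log2 change 4.00, SE 0.40, adjusted p = 0.00945). RRP1, a nucleolar protein of pre-rRNA processing, went from 97, 149 and 56.4 to 1981 and 1228 (log2 change 3.83, SE 0.59, adjusted p = 0.0379). The highest oocyte array stood far below the lower 1-cell array in all 3. QKI, an RNA-binding protein of splicing and message stability, was dim, at 1.15, 3.94 and 1.16 and then 23.4 and 31.1, and rose 2.39-fold (log2 change 1.25, SE 0.14, adjusted p = 0.0133).

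POLR3C, a subunit of the polymerase that makes tRNA and 5S rRNA, was at 26.4, 33.9 and 30 and then at 362 and 451, with all oocyte arrays near one level (log2 change 3.19, SE 0.51, adjusted p = 0.0449). NARS1, the enzyme that charges tRNA with asparagine, was at 1029, 907 and 679.7 against 4526 and 4422, and rose 5.13-fold (log2 change 2.36, SE 0.35, adjusted p = 0.0368). The other NARS1 probe sets were dimmer and overlapped between groups, 1 of them at 10.7, 25.4 and 138 against 23.8 and 89.4. The other EXOSC6 probe set was dim in both groups, at 3.67, 4.51 and 1 against 1.12 and 1. That of POLR3C was dim but higher on both 1-cell arrays, at 1.92, 2.75 and 1 against 18.8 and 14.1, without passing (adjusted p = 0.3). On the later single arrays EXOSC6 stood at 1727, 337, 72.2 and 21.5, RRP1 at 1818, 3180.3, 559 and 1063 and CNOT1 at 3888, 3716, 3731 and 6199, in the order 2-, 4-, 8- and 16-cell. QKI stood at 1.74, 1, 30.8 and 1. QKI is named because all called genes are given. EXOSC6 lost its call without 1-cell 2 alone (adjusted p of 0.0699), and QKI without oocyte 1 or 1-cell 2 (up to 0.0804). CNOT1, RRP1 and NARS1 each kept theirs in 1 of the 5 fits, without oocyte 3, with adjusted p of up to 0.182, 0.169 and 0.182 in the others. POLR3C kept it in none (0.0528 to 0.25).

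Of the genes that rose, 4 have products that act on chromatin or DNA. BRD8, a bromodomain subunit of the TIP60/NuA4 histone acetyltransferase complex, was at 454, 254 and 120.4 in oocytes and 3344 and 4329 in 1-cell embryos, a 14.8-fold rise (log2 change 3.89, SE 0.47, adjusted p = 0.0163). TIMELESS, which stabilises the replication fork, went from 293, 128 and 229 to 3405 and 1609 (log2 change 3.41, SE 0.52, adjusted p = 0.0379). POLDIP2, a protein that binds DNA polymerase delta, went from 72.8, 87.1 and 48.5 to 517 and 615 (log2 change 2.79, SE 0.45, adjusted p = 0.0449). In each the groups were separated by a wide gap. A second POLDIP2 probe set was also higher on both 1-cell arrays, at 137, 173 and 128 against 548 and 663, but did not pass (adjusted p = 0.334). The other TIMELESS probe set overlapped between groups, at 168, 751 and 114 against 486 and 810. That of BRD8 was dim and overlapped too, at 12.8, 17.1 and 33.3 against 49.3 and 24.4. PHF12, a PHD-finger protein of the SIN3 co-repressor complex, went from 43.1, 58.7 and 61.2 to 289.7 and 479.8 (log2 change 2.48, SE 0.33, adjusted p = 0.0235). Its other probe set overlapped, at 3.7, 1.5 and 203 against 2.6 and 1, with a log2 change of -1.25. BRD8 lost its call without 1-cell 2 (adjusted p of 0.129) and PHF12 without oocyte 1, oocyte 2 or 1-cell 2 (up to 0.152). TIMELESS kept it without oocyte 3 alone (up to 0.114), and POLDIP2 kept it in none of the 5 fits (0.0536 to 0.263).

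Another 8 genes that rose have roles in mitochondria, metabolism, stress responses or the handling of proteins. TIMM9, a chaperone that escorts proteins to the inner mitochondrial membrane, was at 106, 28.9 and 9.23 in oocytes, with a wide spread, and 672 and 1573 in 1-cell embryos (log2 change 4.34, SE 0.67, adjusted p = 0.0379). MDH2, the malate dehydrogenase of the citric acid cycle, went from 849.5, 686 and 435 to 4115 and 2762, 5.21-fold higher (log2 change 2.38, SE 0.34, adjusted p = 0.0332). Its second probe set was likewise higher on both 1-cell arrays, at 124, 224 and 61.9 against 519 and 465, without passing (adjusted p = 0.678). GLRX3, a glutaredoxin that handles iron-sulphur clusters, went from 18.5, 40.9 and 27.9 to 445 and 1101 (log2 change 4.02, SE 0.62, adjusted p = 0.0379). Its other probe set showed no such gap, at 135, 95.5 and 96.9 against 93.1 and 97.8. HSPA4, a large heat shock protein that exchanges nucleotides for HSP70, went from 505, 301 and 282 to 1511 and 1892, 4.66-fold higher (log2 change 2.22, SE 0.36, adjusted p = 0.0449). Its second probe set overlapped between groups, at 3399, 1171 and 1706 against 1727 and 1256.

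OSER1, a gene responsive to oxidative stress, went from 308, 359 and 685 to 2839.6 and 2097 (log2 change 2.48, SE 0.39, adjusted p = 0.043). UMPS, which completes the synthesis of UMP, went from 207, 142 and 215 to 799.5 and 1199 (log2 change 2.31, SE 0.37, adjusted p = 0.0449). Its other probe set was dim and overlapped, at 16.5, 21.7 and 7.62 against 8.68 and 16.1. DDRGK1, an endoplasmic reticulum protein that helps attach the ubiquitin-like modifier UFM1, went from 197, 267 and 381 to 1406 and 1795 (log2 change 2.48, SE 0.40, adjusted p = 0.0449). LCMT1 methylates the catalytic subunit of protein phosphatase 2A, and its signal went from 70.7, 86.6 and 31.8 to 674 and 938 (log2 change 3.43, SE 0.50, adjusted p = 0.0368). Of these 8 genes TIMM9 lost its call without oocyte 2 or 1-cell 2 (up to 0.25), and GLRX3 without oocyte 1, oocyte 2 or 1-cell 2 (up to 0.25). HSPA4 kept its call in none of the 5 fits (0.0504 to 0.272). MDH2, OSER1, UMPS, DDRGK1 and LCMT1 kept theirs without oocyte 3 alone, with adjusted p of up to 0.0961, 0.179, 0.287, 0.283 and 0.208.

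The remaining genes that rose act in the cytoskeleton, at membranes or in roles that are less clear. NUDC, a dynein partner needed for nuclear movement and cytokinesis, went from 38.1, 91.8 and 49.4 to 1474 and 845 (log2 change 3.97, SE 0.59, adjusted p = 0.0373). MYH10, the heavy chain of non-muscle myosin IIB, went from 55.4, 113 and 64.4 to 562 and 589 (log2 change 2.71, SE 0.40, adjusted p = 0.0373), while its 3 other probe sets were dim and did not pass. TGOLN2, a protein of the trans-Golgi network, went from 74.2, 149 and 38.2 to 1602 and 1256 (log2 change 3.95, SE 0.58, adjusted p = 0.0368). Its other probe set pointed the other way, with 1804, 2013 and 481 in oocytes and 867 and 428 in 1-cell embryos (log2 change -0.97, adjusted p = 1). PHLDA2, an imprinted gene that limits placental growth, went from 76.5, 193 and 39.1 to 1255 and 1173 (log2 change 3.59, SE 0.58, adjusted p = 0.0449). TMEM214, an endoplasmic reticulum membrane protein, was near the lowest values in oocytes, at 2.74, 4.41 and 1.93, and at 120.3 and 216 in 1-cell embryos (log2 change 3.23, SE 0.41, adjusted p = 0.019).

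ADGRE5, the adhesion receptor CD97, was at 1.23, 1.48 and 1 in oocytes and at 51.2 and 176 in 1-cell embryos (log2 change 2.72, SE 0.33, adjusted p = 0.0163). It was at 1.89, 35, 2.58 and 2.15 on the 2-, 4-, 8- and 16-cell arrays. ARMC7, an armadillo-repeat protein, went from 27.3, 44.5 and 18.8 to 592 and 259 (log2 change 3.19, SE 0.45, adjusted p = 0.0339). KIAA2012, an uncharacterised gene, went from 62.1, 55.1 and 85.1 to 598 and 1510.2 (log2 change 3.55, SE 0.44, adjusted p = 0.0163) and was at 76.6, 350.1, 54 and 49.7 on the 2-, 4-, 8- and 16-cell arrays. ADGRE5 and KIAA2012 thus had their highest signal of these stages at 1 cell, whereas NUDC stood at 2684, 1397, 53.6 and 5346 and PHLDA2 at 2276, 2574, 1821 and 7388 on the later arrays. ADGRE5 lost its call without oocyte 1 alone (0.0674). MYH10, TGOLN2 and PHLDA2 lost theirs without oocyte 1, 1-cell 1 or 1-cell 2, with adjusted p of up to 0.182, 0.179 and 0.225. KIAA2012 and TMEM214 lost theirs without oocyte 1, oocyte 2 or 1-cell 2 (up to 0.0916 and 0.152). NUDC and ARMC7 kept theirs without oocyte 3 alone (up to 0.152 and 0.101).

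Several genes carried more than 1 probe set, and these often disagreed. Of the 32 genes, 14 had others, 17 probe sets in all, of which none passed, 9 had the same sign as the brightest and 3 had both 1-cell arrays on the same side of all oocyte arrays. Over all probe sets 21.2% had arrays that did not overlap, counted in either direction, so the 3 are not read as support. A further 15 genes were called by a dimmer probe set only, with 16 probe sets, all higher in 1-cell embryos, while the brightest probe set of the same gene did not pass. Its log2 change was above 0 in 12 of these genes and below 0 in 3. They were named after their values were seen.

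In MTUS1, ZMYM5 and SETDB1 the brightest probe set also had a log2 change above 2. MTUS1, a microtubule-associated protein, was at 40.9, 48.5 and 41.5 in oocytes and 240.0 and 279 in 1-cell embryos by its brightest probe set (log2 change 2.21, adjusted p = 0.0828) and at 8.78, 7.71 and 4.58 against 55.9 and 68.3 by the one that passed. ZMYM5, a zinc-finger protein, was at 1439.9, 765 and 38.9 against 1931 and 2405 (log2 change 2.45, adjusted p = 0.764), with a wide spread among oocytes. SETDB1, which methylates histone H3 at lysine 9, was at 329, 726 and 52.6 against 1642 and 722 (log2 change 2.09, adjusted p = 0.628), whereas the probe set that passed had 39.2, 72.5 and 24.2 against 364 and 765 (log2 change 3.23, SE 0.41, adjusted p = 0.0173).

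In others the bright probe set had nearly equal signals in both groups. ATP2A2, the calcium pump of the endoplasmic reticulum that refills stores between the calcium waves of fertilisation, was at 10571, 11785 and 10091 against 10803 and 10416 by its brightest probe set (log2 change -0.02, 95% interval -0.71 to 0.66). A dim one rose from 64.4, 45.9 and 37.3 to 576 and 538 (log2 change 3.16, SE 0.33, adjusted p = 0.00945). PRICKLE1, a planar polarity gene, was at 13095, 11480.5 and 8832 against 13013 and 10890.1 by the brightest, while 2 dim ones passed, the first at 84.6, 128 and 21.3 against 1071 and 797. MYLIP, a ubiquitin ligase for lipoprotein receptors, was at 9337, 9967 and 5628 against 10771 and 8273 by the brightest, and at 46.6, 55.9 and 20.4 against 443 and 588 by the one that passed. The largest rise of any named probe set was also at a dim one. NEFL, the light neurofilament subunit, rose 21.8-fold from 15.8, 5.71 and 6.06 to 535 and 513 (log2 change 4.45, SE 0.49, adjusted p = 0.0133), and its brightest probe set was at 597, 486 and 1846 against 1361 and 1275 (log2 change 0.68).

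The other genes called by a dimmer probe set alone were CHTOP, AFG3L2, SEC61A2, MTMR1, NUDT11, MUL1, SCAMP5 and ATP6V0A1. CHTOP, an mRNA export factor, rose 21.5-fold by a probe set at 215, 131 and 110.0 against 2061 and 5868 (log2 change 4.43, SE 0.70, adjusted p = 0.0449), and its brightest was at 2351, 1364 and 2525 against 2724 and 3789 (adjusted p = 0.839). For the 7 from AFG3L2 on, the rise of the dimmer probe set was between 2.55-fold (ATP6V0A1) and 9.06-fold (AFG3L2), and the log2 change of the brightest between -0.54 (MTMR1) and 0.61 (MUL1). ATP2A2 and NEFL lost their calls without 1-cell 2 alone (0.0574 and 0.0804), and the other 13 genes lost theirs without 2 or more of the arrays.

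Another 17 probe sets past the test had no single gene symbol, 14 of them higher and 3 lower. The largest rise of any probe set was one of these, at 47.1, 72.2 and 42.6 in oocytes and 1697 and 1473 in 1-cell embryos (log2 change 4.54, SE 0.47, adjusted p = 0.00945), and it lost its call without 1-cell 2 (0.0651). Among the unnamed falls the largest went from 163, 129.7 and 246 to 15 and 2.32 (SE 0.28 on the log2 scale, adjusted p = 0.00945), and it passed whichever array was left out (0.00193 to 0.0462).

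Most genes that define the oocyte had high signals in both groups, and none of the 12 measured passed the test. GTSF1 was dimmer, at 197, 276 and 29.1 in oocytes and 195 and 96 in 1-cell embryos. ZP2, a protein of the zona pellucida that surrounds the egg, was at 11174, 12718 and 11905 in oocytes and 11706 and 10979 in 1-cell embryos. The arrays interleaved, and the 95% interval of its log2 change was -1.28 to 1.14. ZP4, another zona protein, was at 6197, 8069.6 and 8210.3 against 8554 and 7782 (interval -0.77 to 1.04), and ZP3 ranged widely among oocytes, at 587, 1713 and 6332 against 2388 and 2125 (interval -1.48 to 2.03). KPNA7, the oocyte form of importin alpha, was at 6329, 14177 and 7143 against 12208 and 8984 (interval -0.69 to 1.25). All 4 intervals include 0 and are wide, so these data do not show that the levels were equal.

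Among secreted growth factors of the oocyte, GDF9 was at 928, 1331 and 885 against 3428 and 1199 (log2 change 0.97, interval -0.13 to 2.07). BMP15 was at 423, 708 and 4779 in oocytes and 2784 and 3019.9 in 1-cell embryos, with oocyte array 3 above both 1-cell arrays and the other oocyte arrays far below them (log2 change 1.34, interval -0.52 to 3.20). NLRP5, a maternal gene that early cleavage needs, showed a like split among oocytes, at 1549, 1166 and 6445 against 7439 and 6360.5 (log2 change 1.59, interval 0.18 to 3.00). Leaving out the arrays numbered 3 removes the oocyte array with the high values of both genes. Both then passed, with log2 changes of 2.37 (adjusted p = 0.0426) for BMP15 and 2.34 (adjusted p = 0.0266) for NLRP5. That fit was chosen after the data had been seen, so these passes add no support. The median log2 change of the 12 genes was 0.20, against 0.05 for all genes, and ran from 0.03 to 0.39 with each array left out. In 1 of the 12 genes, KIT, both 1-cell arrays lay above all oocyte arrays (8.33%), as in 14.4% of all genes, and in none did both lie below.

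**Figure D4:**
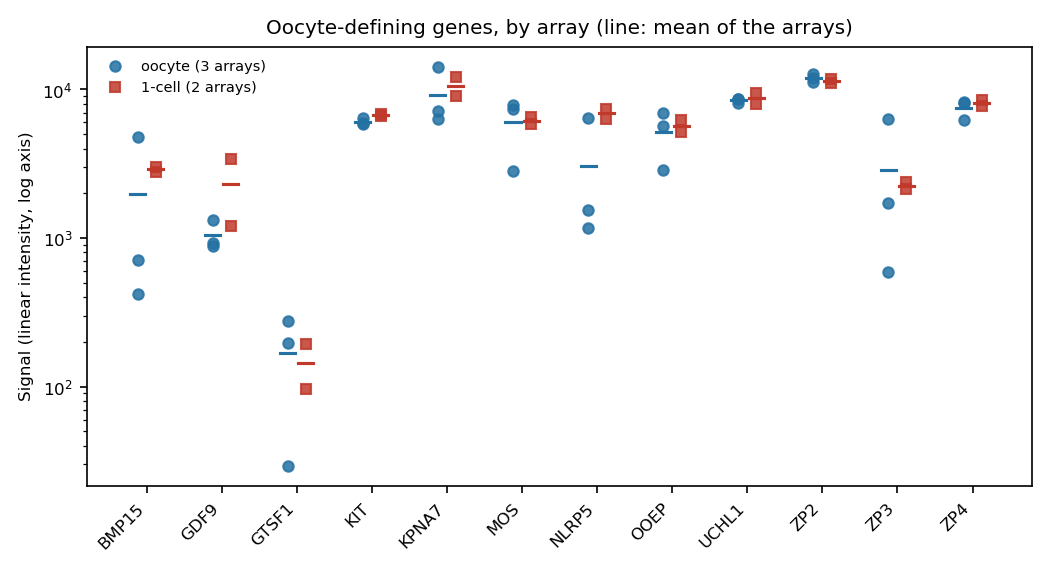
Signal (vertical log axis, linear intensity) of the 12 measured oocyte-defining genes on the 3 oocyte arrays (blue circles) and the 2 arrays of 1-cell embryos (red squares), with a line at each group's mean. The groups overlap in 11 of the 12 genes, and the widest spreads are among oocytes, in BMP15, NLRP5, ZP3 and GTSF1.

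Genes of meiotic arrest and exit did not pass either. MOS, the kinase that holds the egg at metaphase II, was at 2825, 7851 and 7426 in oocytes and 5838 and 6499 in 1-cell embryos (interval -1.43 to 1.77). CCNB1, a cyclin that is degraded when arrest ends, was at 2944, 6632 and 3639 against 5011 and 2839 (interval -1.18 to 0.91), and CCNB2 at 8231, 9281 and 6976 against 9796 and 7481 (interval -1.28 to 1.44). None of the 53 measured genes of the list passed, and their median log2 change was 0.13 (-0.03 without oocyte 3). Both 1-cell arrays lay above all oocyte arrays in 7 (13.2%) and below them in 3 (5.66%), against 14.4% and 8.12% of all genes. CDC25C, a phosphatase that activates the mitotic kinase, was at 908, 455 and 1840.1 against 5455 and 3876. SGO1, which protects centromeric cohesion, was at 459.9, 460.1 and 1300.1 against 2705 and 2544. Both passed without the arrays numbered 3, at 2.81 (adjusted p = 0.028) and 2.47 (adjusted p = 0.0266) on the log2 scale.

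None of 33 genes of egg activation and calcium signalling passed. The receptor that releases calcium at fertilisation, ITPR1, was at 76.3, 109 and 293 against 327 and 478 (log2 change 1.43, adjusted p = 0.633) and passed without the arrays numbered 3 (log2 change 1.94, adjusted p = 0.0467). PLCG1, a phospholipase that makes its ligand, was at 8659, 4081 and 6295 against 4122 and 2857 (adjusted p = 0.931). Its other probe set was dim and lay wholly above, at 4.01, 7.66 and 3 against 15.4 and 17.7. Both 1-cell arrays lay above all oocyte arrays in 4 of the 33 (12.1%, against 14.4% of all genes) and below in none (8.12% of all genes).

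In all, 25 gene lists with 1199 measured genes were described, these included, and 4 genes in them passed, all higher, or 0.334% against 0.35% of all genes. They were CNOT1, GLRX3, HSPA4 and RRP1, and 22 of the lists had no member past the test. Under quantile normalisation 3 list members passed, 2 higher and 1 lower. No test over a list was made, and the shares are descriptions. List genes named here without passing, other than each list's 2 brightest and the marker genes, were chosen after their values were seen.

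**Figure D5:**
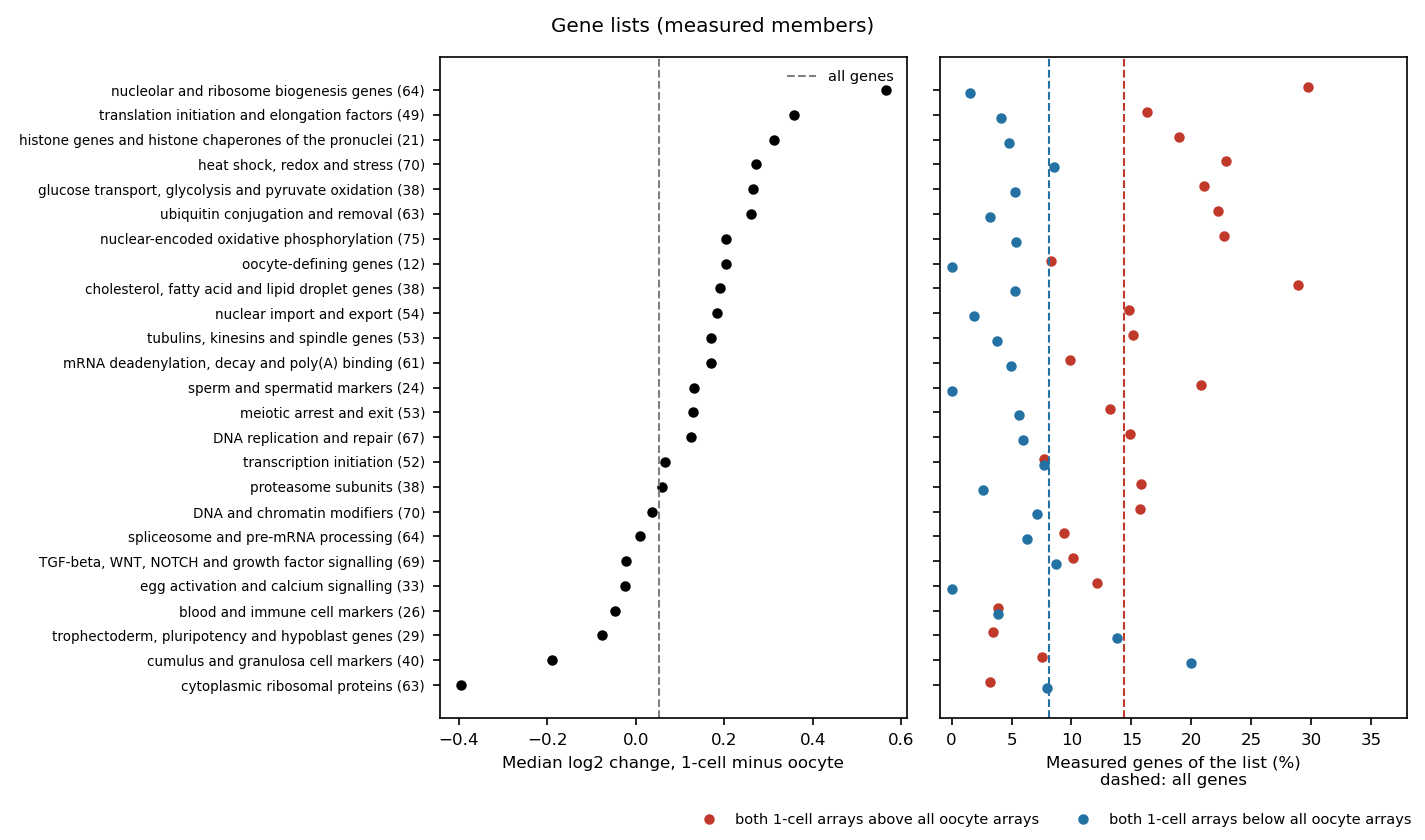
For each of the 25 gene lists (measured members in brackets), the median log2 change from oocyte to 1-cell embryo (left) and the percent of members with both 1-cell arrays above (red) or below (blue) all 3 oocyte arrays (right). Dashed lines give the same values over all 9155 genes; nucleolar genes have the highest median and ribosomal protein genes the lowest, a sign that turns without 1-cell 1.

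Nucleolar and ribosome biogenesis genes had the highest median of the lists, 0.56 over 64 genes, and RRP1 was the 1 that passed, where 0.35% of all genes did. Both 1-cell arrays lay above all oocyte arrays in 19 of them (29.7%) and below in 1 (1.56%), against 14.4% and 8.12% of all genes. The median kept its sign with each array left out (0.42 to 1.05) and was 0.43 under quantile normalisation and 0.47 under median centring. UTP6, of the complex that processes the small subunit's RNA, was at 62.3, 33.7 and 1.79 in oocytes and 452 and 372 in 1-cell embryos (adjusted p = 0.0524). RRP12 was at 125, 151 and 78 against 663 and 927 (adjusted p = 0.0724), and NCL, nucleolin, at 2393, 2997 and 4391 against 5756 and 8164 (adjusted p = 0.214). None of these 3 passed. Without the arrays numbered 3, 9 of the 64 passed (14.1%), all higher, against 2.5% of all genes: RRP1, UTP6, RRP36, NOP2, EMG1, RRP12, PPAN, NHP2 and NOC2L. The fit and the lists were both chosen with results of these data known, so this share is no test of the list. Without oocyte 1 or without oocyte 2, no member of any list passed. CNOT1, GLRX3, HSPA4 and RRP1 also lost their calls without 1-cell 2, as given above.

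Cytoplasmic ribosomal protein genes, the products that nucleolar genes help assemble, had the lowest median, -0.39 over 63 genes. That sign rested on 1-cell 1, since the median was 0.06 without it and -0.93 without 1-cell 2. None passed, and both 1-cell arrays lay below all oocyte arrays in 5 (7.94%) and above in 2 (3.17%), against 8.12% and 14.4% of all genes. RPL18 was at 769, 1288 and 3041 in oocytes and 189.7 and 226 in 1-cell embryos (adjusted p = 0.0724). RPL13A was at 1114, 1347 and 1244 against 364 and 305, with close replicates in both groups (adjusted p = 0.0585). RPS3 and RPL11 were among the bright members whose arrays interleaved, RPS3 at 9008, 10690.2 and 7291 against 10591 and 8518 (interval -0.44 to 0.63). RPL18 and RPL13A passed without the arrays numbered 3, with log2 changes of -2.18 (adjusted p = 0.0332) and -1.83 (adjusted p = 0.0299), and no ribosomal protein gene passed upward in that fit.

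In the list of 49 translation initiation and elongation factors none passed. Their median was 0.36, and lower, at 0.11 to 0.32, with each array left out. Of them 8 lay wholly above (16.3%) and 2 wholly below (4.08%), against 14.4% and 8.12% of all genes. EEF1A1, the elongation factor that brings tRNA to the ribosome, was at 5129.8, 7695 and 2630.3 against 10881 and 7151 (adjusted p = 0.633), EIF4E, which binds the cap, at 6134, 4507 and 4818 against 4909 and 3561 (interval -1.04 to 0.46), and EIF1AX at 2778, 1802 and 4577 against 2000.3 and 2779. In the list of deadenylation, decay and poly(A) binding CNOT1 was the 1 of 61 genes that passed, where 0.35% of all genes did, and the median was 0.17. PARN, another deadenylase, was at 2959, 2356 and 3810.3 against 8414 and 7796, and passed without the arrays numbered 3 (log2 change 1.61, adjusted p = 0.0317).

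Heat shock, redox and stress genes had 2 of 70 members past the test, GLRX3 and HSPA4, where 0.35% of all genes passed. They had 16 wholly above (22.9%) and 6 wholly below (8.57%), where all genes had 14.4% and 8.12%. HSPA8, the constitutive HSP70, was at 1948, 1706 and 3268 in oocytes and 6710.4 and 6422 in 1-cell embryos, with no overlap (log2 change 1.56, interval 0.84 to 2.28, adjusted p = 0.103). It passed without oocyte 3 (log2 change 1.84, adjusted p = 0.0339). CCT3, a subunit of the chaperonin that folds tubulin and actin, was at 433, 649 and 498 against 2646 and 2202 (adjusted p = 0.058), and HSP90AA1 at 2921, 1936 and 5069.7 against 11502 and 9815 (adjusted p = 0.104). HSPA1A, the inducible HSP70, overlapped, at 2686, 2100.0 and 8529 against 9026 and 8482, with oocyte array 3 between the 1-cell arrays. Of its dimmer probe sets 1 lay wholly above, at 834, 599 and 1113 against 1795 and 3493 (log2 change 1.59). Another lay wholly below, at 173, 205 and 255.5 against 124 and 79.25 (log2 change -0.96), and the rest overlapped. Without the arrays numbered 3, 8 of the 70 passed (11.4%), all higher, against 2.5% of all genes: GLRX3, CCT3, HSP90AA1, TXNRD1, HSPA4, PRDX5, HSPA1A and HSPA8. Here too the fit and the list were chosen with results of these data known, so the share is no test of the list.

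No member of the metabolic lists passed. Over all genes 14.4% lay wholly above and 8.12% wholly below. In glucose use, SLC2A8, a glucose transporter, was at 252, 97.7 and 47.4 against 1416 and 685 (adjusted p = 0.135), and LDHA, which interconverts pyruvate and lactate, at 1971, 3544 and 5762 against 10319.8 and 10365 (adjusted p = 0.849). A dimmer LDHA probe set lay wholly below, at 78.4, 178 and 226 against 67.1 and 43.6, and another overlapped. Of 38 genes of glucose use 8 lay wholly above (21.1%) and 2 wholly below (5.26%). Of 38 cholesterol, fatty acid and lipid droplet genes 11 lay wholly above (28.9%) and 2 wholly below (5.26%), with FASN, the fatty acid synthase, at 1100.3, 249.7 and 17.1 against 4228 and 1240.2 (adjusted p = 0.38). Their median of 0.19 was close to that of other lists, and none of them passed without the arrays numbered 3 either. Of 75 nuclear genes for oxidative phosphorylation 17 lay wholly above (22.7%) and 4 wholly below (5.33%). SDHC, a subunit of succinate dehydrogenase, was at 3557, 2306 and 3181 against 5048 and 7050.4 (log2 change 1.00, adjusted p = 0.247).

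The lists of chromatin modifiers, of histone genes and of transcription initiation also had no member past the test. BRD8 and PHF12, which rose, are not on them. DNMT3A, which sets new DNA methylation, was at 12.3, 44.1 and 17.4 in oocytes and 195 and 436 in 1-cell embryos by its brightest probe set, with a wide gap (log2 change 3.01, interval 1.55 to 4.46, adjusted p = 0.126). That probe set passed without the arrays numbered 3 (log2 change 2.90, adjusted p = 0.0475). A dimmer DNMT3A probe set lay wholly below, at 27.4, 14.1 and 22.45 against 8.25 and 13.2. Another overlapped, at 23.3, 33.7 and 22.2 against 32.3 and 160. UHRF1, which guides maintenance methylation, was at 10453, 11636 and 8449 against 11021 and 9695 (interval -1.87 to 1.94), and DNMT1 at 328, 1017 and 505 against 647 and 361 (interval -1.41 to 1.03). H3-3A, a histone H3.3 gene whose product replaces protamines in the paternal pronucleus, was at 9429, 12355 and 11042 against 7425 and 10710.0 (interval -0.83 to 0.25). GTF2E2, a basal transcription factor subunit, lay wholly above, at 3516, 3678 and 1833 against 8788 and 9062 (adjusted p = 0.284). The medians of the chromatin, transcription initiation, spliceosome and proteasome lists were 0.04, 0.07, 0.01 and 0.06, close to the 0.05 of all genes. Quantile normalisation and median centring moved the median of all genes to -0.04 (both), and the 4 lists' medians were then -0.12 to -0.0045 and -0.09 to -0.03.

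Among signalling and lineage genes the differences of largest size were downward but did not pass. FGF2, a fibroblast growth factor, was at 340.4, 206 and 1411 in oocytes and 27.7 and 17.1 in 1-cell embryos (log2 change -3.67, adjusted p = 0.082). GATA6, a factor of the later hypoblast, was at 202, 116 and 705 against 18.2 and 7.5 (log2 change -3.28, adjusted p = 0.0852). In both, oocyte array 3 was the highest and all oocyte arrays lay above the 1-cell arrays. They passed without the arrays numbered 3, at -2.89 (adjusted p = 0.028) and -2.58 (adjusted p = 0.032) on the log2 scale. POU5F1, the pluripotency factor OCT4, which oocytes also store, was at 2542, 3207 and 5446 against 3878 and 2210.4 (interval -1.09 to 0.55). The median of the 69 signalling genes was -0.02 (0.02 without oocyte 3) and that of the 29 lineage genes -0.08.

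The lists of ubiquitin, nuclear transport, DNA replication, histone and spindle genes had no member past the test. UBE2E1, a ubiquitin-conjugating enzyme, was at 7829.9, 8470.2 and 8212 against 8373 and 9079. PCNA, the sliding clamp of replication, was at 6786, 8715 and 4066 against 8332 and 6818. DYNLL1, a dynein light chain, lay wholly above, at 10661, 9348 and 12382 against 15765 and 15025 (interval -0.87 to 1.91). Of the 63 ubiquitin genes 14 lay wholly above (22.2%) and 2 wholly below (3.17%), against 14.4% and 8.12% of all genes, while the medians of the 5 lists ran from 0.12 to 0.31. The highest, that of the histone list, was -0.02 without oocyte 3, and the lowest, that of DNA replication, was then 0.04. Common reference genes were not steady across arrays: ACTB was at 6573, 9005 and 3673 against 6893 and 5982, and GAPDH at 44, 298 and 177 against 838 and 253 (adjusted p = 0.873).

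Markers of other cells that the samples could hold were compared next. Cumulus cells surround the oocyte until they are removed, and 40 of their and granulosa cells' markers were measured, none of which passed. Their summed signal was 15160 to 17890 on the oocyte arrays and 13200 and 14160 on the 1-cell arrays, without overlap. That sum leans on bright members. On the single 8-cell array SERPINE2, STAR and HAS2 were at 5796, 4472 and 2003, and COL4A1 and VCAN at 376 and 54.3. How much of the sum came from cumulus cells and how much from the oocyte or embryo was not tested. Both 1-cell arrays lay below all oocyte arrays in 8 (20%, against 8.12% of all genes) and above in 3 (7.5%, against 14.4%), and the median log2 change was -0.19 (-0.30 to -0.14 with each array left out). The defining ones did not move together. HAS2 was at 1776, 1571 and 1310.3 against 1913 and 856, STAR at 2537, 2958 and 2640.2 against 2595 and 4462, and PTX3 at 428, 416 and 20.6 against 397 and 489.8. TNFAIP6 was at 562, 70.2 and 1072 against 2.45 and 94.7. FOXL2 was wholly lower, at 54.1, 53.8 and 42.6 against 34.3 and 38.1. Of the other markers TIMP1 was wholly lower, at 180.5, 261 and 275 against 104 and 80.6. So was COL4A1, at 2989, 2964 and 2358 against 2035 and 432, and ADAMTS1, at 179, 53.6 and 22.4 against 16.8 and 11.2. The dimmer HSD3B1, CYP11A1 and BTC were wholly lower too, while NPR2, CD44 and LHCGR were wholly higher. FSHR, AMH and CYP19A1 were at 47 or lower on all 5 arrays, and FSHR was wholly lower, at 3.14, 9.56 and 3.28 against 1.88 and 1.44. The part of cumulus RNA in the genes that fell was not tested.

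Sperm enter the sample at fertilisation. The summed signal of 24 sperm and spermatid markers was 1290 to 2576 on the oocyte arrays and 2316 and 4322 on the 1-cell arrays, with overlap, and none passed. That sum too leans on bright members. Among them CLGN was at 446, 420 and 1335.5 against 482 and 1977, and at 3552 on the single 2-cell array. The protamine gene PRM1 was at 3.28, 4.95 and 14 against 3.81 and 9.53, PRM2 at 1, 1.25 and 1 against 1.38 and 2.41, and both were near the lowest values on every array. LDHC, the testis form of lactate dehydrogenase, was at 138, 103 and 21.6 against 367 and 290.4, and BSP1, a seminal plasma protein, at 520.1, 209.7 and 612 against 761 and 1234. Both 1-cell arrays lay above all oocyte arrays in 5 of the 24 (20.8%, against 14.4% of all genes) and below in none (8.12% of all genes). Of 26 blood and immune markers 1 lay wholly above and 1 wholly below (3.85% each, against 14.4% and 8.12% of all genes), and the beta globin gene HBB was at 20.7, 18.2 and 30.3 against 19.1 and 18.9. The part of sperm RNA in the genes that rose was not tested.

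The same probe sets were followed on the single arrays of the next divisions. Over the 56 higher probe sets the median signal was 46.8, 57.3 and 30.9 in oocytes, 549 and 570 in 1-cell embryos, and 1022, 940, 195.5 and 267 on the single 2-, 4-, 8- and 16-cell arrays. Over the 9 lower ones it was 157, 130 and 246 in oocytes, 8.28 and 10.5 in 1-cell embryos, and 7.89, 5.81, 15.8 and 135 on the later arrays, so that at 16 cells it was back within the range of the oocyte arrays. The oocyte and 1-cell values chose these probe sets, and the later stages have 1 array each and no replicate. Within the group the courses differed. BRD8 was at 4472, 7653, 6977 and 8482 on the 2-, 4-, 8- and 16-cell arrays and OSER1 at 5210.4, 5836, 6279 and 7838, both high throughout. TIMELESS was at 5262, 5894, 332 and 2116, UMPS at 3107, 2818, 106 and 6261 and EXOSC6 at 1727, 337, 72.2 and 21.5, high at 2 and 4 cells and low at 8, with TIMELESS and UMPS high again at 16. RACK1 was at 19.9, 431, 862 and 7116, lowest at 2 cells and above all oocyte arrays at 16, and CRABP2 at 13.2, 24.9, 115 and 135, above all oocyte arrays at 8 and 16 cells.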

How the data were processed

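Total RNA of oocytes and in vitro embryos was amplified in 3 rounds, per the labels' protocols. The authors deposited 1 linear intensity per probe set and array; summarisation, scaling, floor, software and genome build were not given in the sources used here. After 112 control probe sets were left out, log2(value + 16) of the other 24016 was fitted with limma 3.58.1 (R 4.3.3), with 1 mean per stage over 15 arrays, a variance trend and Benjamini-Hochberg adjustment. The number of arrays limits the precision. Platform symbols were updated by gene identifier with RefSeq's ARS-UCD2.0 table (13263 probe sets matched): 13292 had 1 symbol, 86 several and 10638 none. A gene was counted at its probe set with the highest mean. The rule for named genes took up to 15 rises and 15 falls past the test, non-overlapping and with the higher group's mean above the median of probe set means, up to 4 members past the test per list or else its 2 brightest, and a set of markers. Members and lists were chosen with earlier results of these data known. DPPA3, BTG4, CPEB1, PABPC1L, YBX2, H1-8, NPM2, TET3, GREM1 and PLCZ1 had no named probe set. The procedure was tested on simulated data. Alternatives covered normalisation, filter, pseudocount, variance model, arrays in the fit, replicate and spike-in blocks, and each array left out. Plots used matplotlib 3.10.9 (Python 3.11.15).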

Additional observations from a re-analysis of the deposited data

How the results depend on the processing

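Counts are given as probe sets, genes and list members past the test, which were 65, 32 and 4. Quantile normalisation gave 38 and 21, and centring each array on its median 35 and 21. A pseudocount of 1 gave 42 probe sets, and no variance trend gave 110, 58 and 8. With each array left out the counts ran from 8 to 169 probe sets, 2 to 79 genes and 0 to 17 list members. Leaving out the arrays numbered 3, chosen after seeing the data, gave 419, 257 and 53. In 4 fits nothing passed, a count of 0 for probe sets, genes and list members alike, and with limma 1606 probe sets had an unadjusted p below 0.05 with oocyte and 1-cell arrays alone, 895 with spike-in arrays alone, 4182 with arrays without spike-in signal alone and 2792 with the replicate block on arrays 1 and 2 alone. The cause was not tested, but these 4 fits hold fewer arrays. The replicate block over the 4 replicated stages gave 38, 16 and 2. The labels give same-numbered arrays only a number in common. In the 4 replicated stages the arrays numbered 1 all lacked spike-in signal, and those numbered 3 all had it. Deviations from the stage means correlated at 0.183 (oocyte 1 and 1-cell 1), -0.115 (oocyte 2 and 1-cell 2) and 0.192 (oocyte 3 and 1-cell 2). The deviations of the 2 1-cell arrays mirror each other, so these values are not independent and do not settle what the arrays share. The other alternatives (filter, pseudocount of 64, robust variance, spike-in block, mean of all probe sets of a gene) stayed within 1.5 times. All 65 probe sets kept their sign under quantile normalisation and median centring. Signals near 1 have no stated background, which limits changes of dim genes, and 2 arrays in a group limit all others.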
